A study of Mus musculus with 8 samples.

Results

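The microRNA pair miR-221 and miR-222 was examined in whole kidneys of diabetic Akita mice and of control mice, through the 4 mature strands that the array measures: mmu-miR-221-3p, mmu-miR-221-5p, mmu-miR-222-3p and mmu-miR-222-5p, written below without the species prefix. They were taken by name from the 1881 mouse miRNAs on the array. The Akita samples came from male C57BL/6-Ins2Akita/J mice and the controls from male C57BL/6J mice, 4 kidney samples in each group, each hybridised to its own array. The Akita allele of Ins2 acts dominantly: its misfolded proinsulin damages pancreatic beta cells, the mice become diabetic while young, and their kidneys are exposed to high blood glucose. The age label is 36 for all 8 samples and carries no unit, the controls are titled Mock without a stated treatment, and no label says whether each sample came from its own mouse, so that the spread between samples may be partly technical. The pair was singled out with its difference between Akita and control kidneys already known. That difference is therefore given below as values, without a p-value for the pair.

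MiR-221 and miR-222 are cut from a shared primary transcript, and their 3p strands carry the same seed, the stretch at the 5′ end that pairs with target mRNAs. They are best known for repressing the cell cycle inhibitor Cdkn1b and the receptor Kit. Endothelial cells, vascular smooth muscle and epithelia are among the cells that express them, and they are known for acting on proliferation and on angiogenesis. A whole-kidney RNA sample cannot tell fewer cells of a type from less miRNA per cell.

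The mature sequences show why the 3p strands form a seed family and the 5p strand does not belong to it. They are written 5′ to 3′ as RefSeq (GRCm38.p6) gives them, with the seed, bases 2 to 8, in capitals. RefSeq's table held 3 of the 4 members.
miR-221-3p: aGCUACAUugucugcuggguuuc
miR-222-3p: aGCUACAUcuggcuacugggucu
miR-1928: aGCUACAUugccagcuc
miR-221-5p: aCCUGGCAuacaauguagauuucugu
The 3p strands are 23 bases each, share the first 8 bases without a break and have 11 identical positions in all when set side by side without gaps. MiR-1928 is the only other miRNA with this seed among the 1679 mature names in the table, and 0 of the 8 arrays measured it above background. Among the names in that table, the pair was thus the measurable part of its seed family in these kidneys. The array holds 1881 mouse miRNAs, so some of them were not checked for the seed.

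The hairpins place both genes on the X chromosome. They are shown with the mature strands of the table in capitals, and both lie on the minus strand.
Mir221, chrX:19146294-19146388: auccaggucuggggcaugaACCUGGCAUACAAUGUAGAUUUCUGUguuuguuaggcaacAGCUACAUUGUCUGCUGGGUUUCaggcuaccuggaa
Mir222, chrX:19146893-19146971: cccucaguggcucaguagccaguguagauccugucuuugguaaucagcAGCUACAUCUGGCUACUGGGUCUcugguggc
Between them lie 504 bases, with Mir222 upstream of Mir221 in the direction of transcription. No other gene of the RefSeq table overlaps the stretch that holds both hairpins, and the nearest annotated genes are the long noncoding RNA Gm14636 on the Mir222 side and the pseudogene Gm5383 on the Mir221 side.

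The array reads each 3p strand with 2 probes, which are DNA complements of its 3′ part, written here 5′ to 3′.
miR-221-3p, probe 1: gaaacccagcagacaatgt
miR-221-3p, probe 2: gaaacccagcagacaatgta
miR-222-3p, probe 1: acccagtagccag
miR-222-3p, probe 2: acccagtagccaga
The probes of miR-221-3p pair with its bases 5 to 23 and 4 to 23, and those of miR-222-3p with bases 9 to 21 and 8 to 21. Set against the same positions of the other 3p strand, each miR-221-3p probe has 12 mismatches and each miR-222-3p probe 10. These counts allow no shift between the strands. The probes of both strands hold the stretch acccag, which pairs at different positions of the strands, so a shifted pairing would have fewer mismatches. Whether a probe also binds the other 3p strand was not tested. The probes of a strand overlap and share its sequence, so they are not independent of each other.

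Each of the 8 arrays measured both 3p strands well above background, and 0 of them a 5p strand. On each array 12 to 15 usable spots of each 3p probe were read, and every one of them was flagged as well above background. The coefficient of variation between the spots of a probe on an array ran from 2.12% to 5.65% for the miR-221-3p probes and from 2.79% to 11.4% for the miR-222-3p probes. The resulting standard error of a summed signal on the log2 scale was at most 0.012 for miR-221-3p and 0.027 for miR-222-3p.

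For the 5p strands, 0 of 236 usable spots of miR-221-5p and 0 of 233 of miR-222-5p were flagged as well above background over the 8 arrays. Their probe means lay between -3.61 and 1.55 intensity units for miR-221-5p and between -2.88 and 5.30 for miR-222-5p. The negative control spots of the same arrays had means from 0.256 to 2.83 with SDs from 3.14 to 3.69, and the dimmest spot flagged as well above background on any array stood at 19.3. Every 5p probe mean was thus far under the dimmest measurable spot, in both groups. No change of the 5p strands between Akita and control kidneys was measurable, and they did not enter the comparison, which covered 285 miRNAs: a miRNA was tested if every array of the control group, or every array of the Akita group, measured it above background.

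Relative to the brighter part of each array, both 3p strands were higher in Akita than in control kidneys. The signal here is the log2 of the sum of a miRNA's probes, scaled so that all arrays have the same 75th percentile among the probes that every array measured. MiR-221-3p stood at 9.10, 9.28, 9.21 and 9.23 in control replicates 1 to 4 and at 9.54, 9.39, 9.51 and 9.71 in Akita replicates 1 to 4. All 4 Akita values lay above all 4 control values, with Akita replicate 4 the highest and control replicate 1 the lowest. The means were 9.21 ± 0.08 in control and 9.54 ± 0.13 in Akita (SD, n = 4 each), a log2 fold change, Akita minus control, of 0.33 ± 0.08 SE, or 1.26-fold.

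MiR-222-3p moved by a similar amount. It stood at 7.55, 7.56, 7.46 and 7.44 in the control replicates and at 7.79, 7.65, 7.79 and 7.91 in the Akita replicates. Its groups did not overlap either, and Akita replicate 4 was again the highest. The means were 7.50 ± 0.06 and 7.79 ± 0.11 (SD, n = 4 each), a log2 fold change of 0.28 ± 0.07 SE, or 1.22-fold. The 95% intervals of the fitted changes ran from 0.15 to 0.52 for miR-221-3p and from 0.12 to 0.45 for miR-222-3p. They make no allowance for the choice of the pair on this contrast, so they describe precision and are no test. The spread between the arrays of a group was larger than the error from the spots in both miRNAs.

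**Figure D1:**
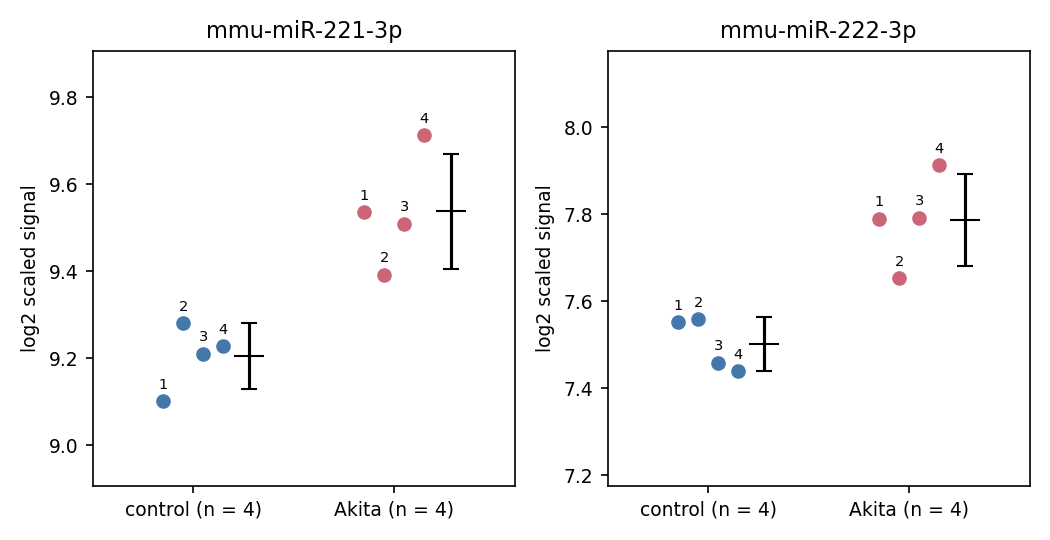
Log2 scaled signal of miR-221-3p (left) and miR-222-3p (right) in each control and Akita kidney; the points carry the replicate number, and the bars show the mean and SD of each group (n = 4). Both vertical axes span the same range, and in both panels the 4 Akita points lie above the 4 control points.

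The 4 probes gave changes of similar size. The log2 difference of group means was 0.32 and 0.34 for probes 1 and 2 of miR-221-3p, and 0.30 and 0.27 for those of miR-222-3p. In each probe the lowest Akita value was above the highest control value: 8.17 against 8.06 and 8.59 against 8.47 for miR-221-3p, and 6.37 against 6.22 and 6.89 against 6.83 for miR-222-3p. The narrowest gap was that of the second miR-222-3p probe.

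**Figure D2:**
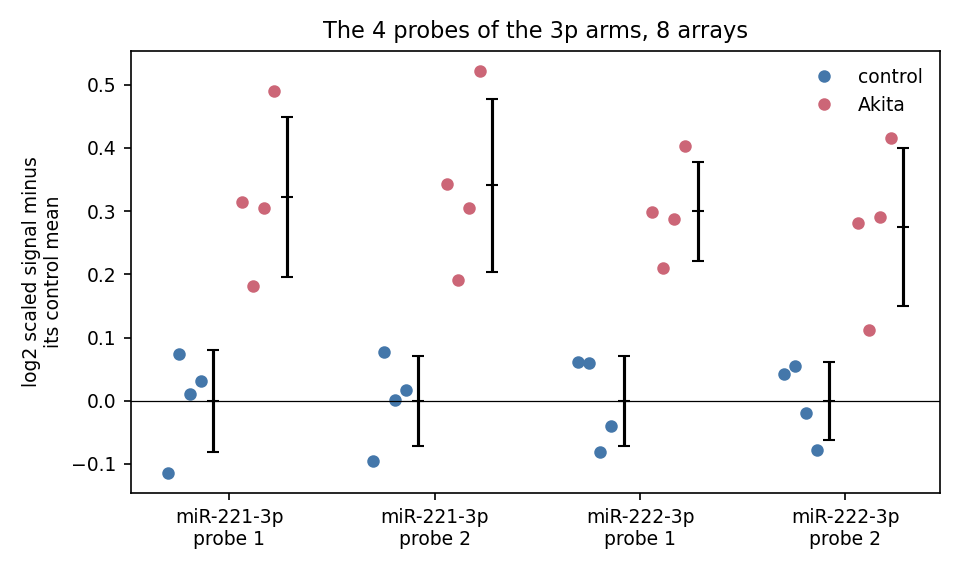
Log2 scaled signal of the 4 probes that read the 3p strands, each minus its own control mean, with 1 point per array and bars for the mean and SD (n = 4 per group). For every probe the Akita points lie above the control points, with mean differences from 0.27 to 0.34.

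Against all tested miRNAs the pair's change was moderate in size. In the fit with limma, which estimates the spread of each miRNA with help from all others, 24 of the 285 tested miRNAs were called higher in Akita at an adjusted p under 0.05 (8.42%) and 18 lower (6.32%). Both tested members were among those higher, and nothing is read from this, since the pair was chosen on this contrast. Each kept its call under 9 of 23 alternatives to the processing. These 23 include the 8 fits that left out an array, and each strand kept its call in 2 of those. Over the 8 fits the log2 fold changes ran from 0.27 to 0.38 for miR-221-3p and from 0.24 to 0.33 for miR-222-3p. The groups did not overlap in 22.8% of the tested miRNAs, with the whole Akita group above the controls in 13.7% and below them in 9.12%. By absolute change miR-221-3p ranked 51 and miR-222-3p ranked 64 of the 285. The median log2 fold change of the tested miRNAs was 0.06, so that the pair stood 0.27 and 0.22 above it.

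**Figure D3:**
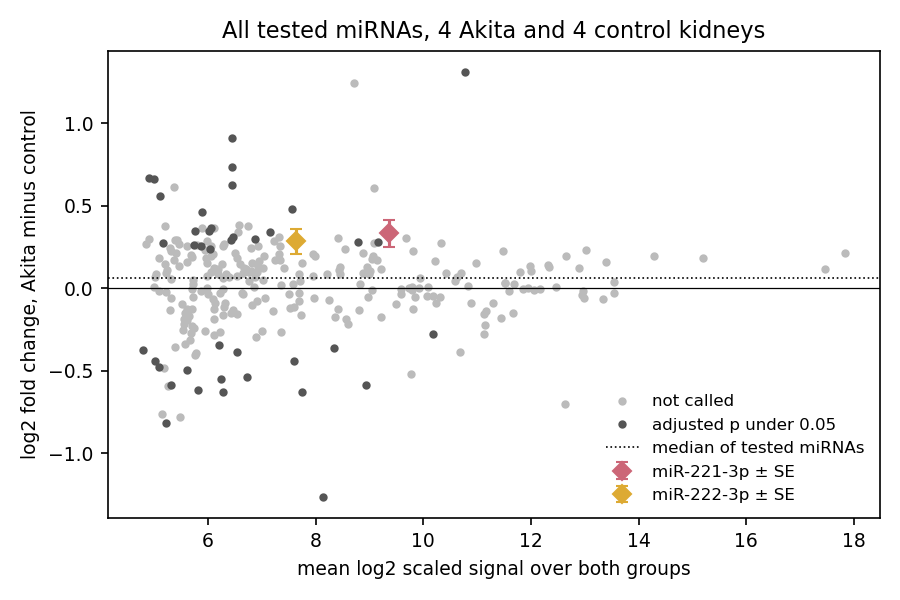
Log2 fold change, Akita minus control, against mean log2 scaled signal for the 285 tested miRNAs; dark points had an adjusted p under 0.05 in the limma fit, diamonds with SE bars mark the pair, and the dotted line is the median. The pair, at 0.33 and 0.28, lies above the median of 0.06 and well below the highest points.

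The rise was a rise relative to the other miRNAs on the array. Before scaling, the summed signal of miR-221-3p was 649.5 ± 41.3 intensity units in control and 677.2 ± 34.9 in Akita (SD, n = 4 each), and the groups, from 590.1 to 678.9 and from 634.3 to 718.6, overlapped. That of miR-222-3p was 199.2 ± 5.48 and 201.2 ± 11.7, with control values from 193.8 to 205.8 inside the Akita range of 189.9 to 214.04. Over the same arrays the 75th percentile used for scaling was 16.96% lower in Akita, 368.8 to 446.2 against 495.4 to 520.05 in control. The array of Akita replicate 4, which gave the highest scaled values of both miRNAs, had the lowest percentile.

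Without scaling the log2 fold changes were therefore 0.06 and 0.01, while the median of all tested miRNAs was -0.21. Scaled to the labelling spike-ins, which are RNAs added in equal amount before labelling, they were 0.19 and 0.14 against a median of -0.08. The spike-in signal itself was 2794 in control replicate 4 and between 1939 and 2133 on the other 7 arrays. The other alternatives to the processing gave between 0.26 and 0.43 for miR-221-3p and between 0.24 and 0.38 for miR-222-3p. Each of the 23 alternatives put both miRNAs above 0 and above the median of its tested miRNAs, by 0.16 to 0.33 for miR-221-3p and by 0.12 to 0.28 for miR-222-3p. That count is no independent support, since a common factor per array shifts the miRNAs alike. No scaling, median scaling, the spike-ins and the percentile over every probe thus all kept distances of 0.27 and 0.22. The upper ends came with a higher floor and without the filter on dim miRNAs, where the median was 0. Whether the amount of these miRNAs per kidney RNA rose, or that of most others fell, cannot be told apart on these arrays. The split of the calls moved as well. Against 24 higher and 18 lower, unscaled arrays gave 5 and 104, the spike-ins 4 and 14, and the authors' deposited ratios 16 and 20. Agilent's total gene signal gave 9 and 12, and a percentile taken over every probe of the array 10 and 4. Normexp background correction gave 81 and 8, with an offset of 50 intensity units added to every spot before scaling.

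**Figure D4:**
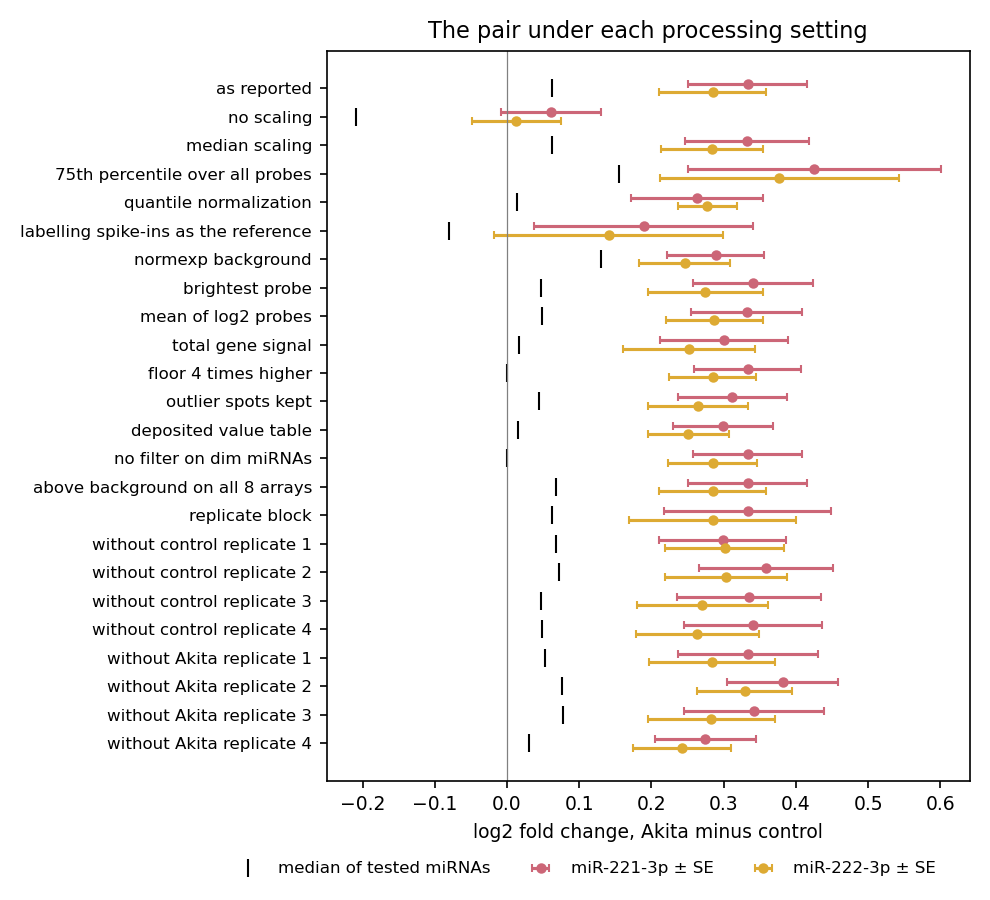
Log2 fold change, Akita minus control, of miR-221-3p and miR-222-3p (points with SE) under the processing as reported and 23 alternatives, with a tick at the median of the tested miRNAs. Both miRNAs lie above the tick in each setting, and they lie closest to 0 without scaling, at 0.06 and 0.01. Settings that differ only in a common factor per array keep the same distance to the tick.

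Over all 8 arrays the scaled signals of the 2 strands varied together. Among the 4 control arrays alone they did not, and there control replicate 1 stood apart from the others. In control the SD of their difference, 0.11, was larger than the SD of miR-221-3p, 0.08, or of miR-222-3p, 0.06. In Akita the SD of the difference, 0.04, was smaller than those of the strands, 0.13 and 0.11. The log2 signal of miR-221-3p minus that of miR-222-3p was 1.55, 1.72, 1.75 and 1.79 in the control replicates and 1.75, 1.74, 1.72 and 1.80 in the Akita replicates. Control replicate 1 had the smallest difference, and the other 7 arrays lay within 0.1 of each other. The difference averaged 1.70 ± 0.11 in control and 1.75 ± 0.04 in Akita (SD, n = 4 each), so that it changed by 0.05, less than the spread between the control replicates. Dividing an array by a common factor leaves this quantity as it is. Its size compares probes of unequal length and says nothing of which miRNA was more abundant.

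With the group means removed and both groups pooled, the Pearson correlation of the 2 strands over the 8 arrays was 0.69. Over all arrays as they stood it was 0.93 (Spearman 0.88). These are descriptions: the groups do not overlap, all miRNAs of an array share its scaling, and the pair was chosen with its change known. Among the 257 miRNAs measured on all arrays, the median correlation over all pairs was 0.21 with the group means removed, with quartiles at -0.24 and 0.62. Leaving out control replicate 1 and Akita replicate 4, the arrays farthest from the median of miR-221-3p, raised the scaled correlation of 0.93 to 0.99 over the remaining 6. Without scaling the correlation over all 8 arrays was 0.48, and 0.47 with the group means removed.

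**Figure D5:**
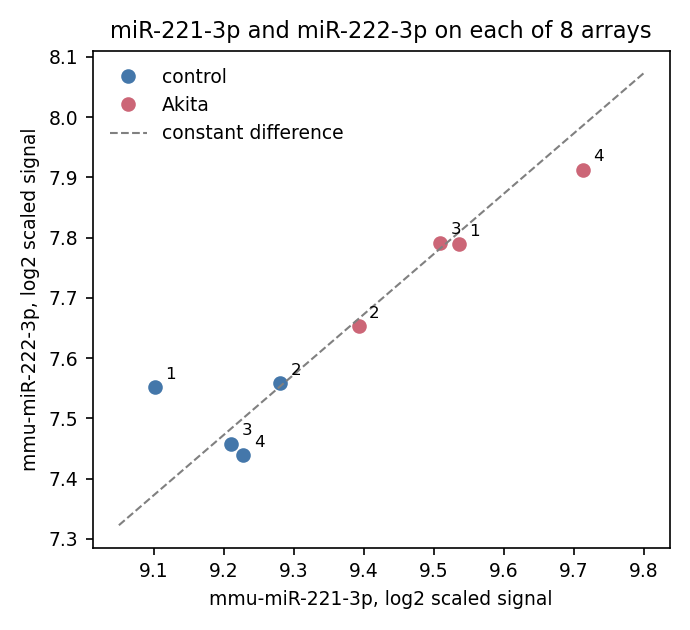
Log2 scaled signal of miR-222-3p against miR-221-3p on each array, numbered by replicate; the dashed line marks the mean difference of the strands over all arrays. Control replicate 1 lies off the line, with a difference of 1.55 against 1.72 to 1.80 on the other arrays.

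The miRNAs whose signal followed the mean of the pair most closely over the 8 arrays were miR-21a-5p, best known from fibrosis (r = 0.97), miR-24-2-5p (0.97), miR-139-5p (0.96) and the p53-responsive miR-34a-5p (0.95). MiR-551b-3p met the same rule, but 0 control arrays measured it above background and its control values all stood at the floor of 4.56, so its correlation is set in part by the floor and is not given. The median over the 283 miRNAs compared was 0.37. With the group means removed the correlations of the other 4 were 0.89, 0.92, 0.81 and 0.87, and without scaling they were 0.59, 0.55, 0.81 and 0.49, so that miR-139-5p followed the pair most closely on unscaled arrays among these 4.

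The miRNAs of the cell types in which the pair is known were also compared. Since 8.42% of all tested miRNAs were called higher and 6.32% lower, 0 calls in a list this short say little. Of the endothelial strands, miR-126a-3p had a log2 fold change of 0.14 ± 0.09 SE and miR-126a-5p of 0.12 ± 0.08 SE, and 0 of 2 were called. Their summed log2 signal ran from 12.21 to 12.34 in control and from 12.30 to 12.65 in Akita, with overlap. Of the 6 smooth muscle strands 2 were tested and 0 called, with miR-143-3p at 0.00 and miR-145a-5p at -0.03; of the 4 untested, miR-1a-3p was above background on 6 of the 8 arrays, and miR-143-5p, miR-145a-3p and miR-133a-3p on 0. All 3 mesenchymal strands were tested and 0 called, the highest being miR-214-3p at 0.18 ± 0.10 SE. The tubular strands, with which the kidney label was checked, were measured on the arrays: miR-30a-5p averaged 13.3 and miR-192-5p 12.1 in control on the log2 scale, and 0 of 5 tested were called. MiR-215-5p, from the same list, was above background on 0 arrays.

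Most leukocyte miRNAs were called lower in the Akita kidneys, though this depended on the processing. Of the 6 leukocyte strands 5 were called lower and 0 higher, where 6.32% of all tested miRNAs were called lower, and the median log2 fold change was -0.54 against 0.06 over all tested miRNAs. For miR-150-5p, the strand without a call, the change was -0.35 ± 0.13 SE (limma adjusted p = 0.090). MiR-155-5p, a miRNA of activated leukocytes, had a log2 fold change of -0.61 ± 0.06 SE (limma adjusted p = 0.00067), and miR-142a-3p, made in nearly all blood cell lineages, one of -0.59 ± 0.09 SE (limma adjusted p = 0.0051). With normexp background correction miR-142a-3p stayed called at -0.45, while the other 4 lost their calls: miR-155-5p moved to -0.04 (limma adjusted p = 0.56), miR-142a-5p to -0.07, miR-342-3p to -0.14 and miR-223-3p to -0.19. The offset of 50 intensity units that normexp added to every spot by itself alters the log2 changes of dim miRNAs. Effects of the offset and of the background correction cannot be told apart here. With the percentile over every probe 0 of the 5 kept a call, and their changes ran from -0.52 to -0.35. Without the filter on dim miRNAs miR-155-5p kept its call and the other 4 did not. With a floor 4 times higher, miR-142a-3p and miR-342-3p kept their calls. MiR-223-3p lost its call under that floor, and so did miR-142a-5p, at -0.03 (limma adjusted p = 0.80). All values of miR-155-5p stood at that floor. The summed log2 signal of the list ran from 10.06 to 10.27 in control and from 9.52 to 9.77 in Akita, opposite to the pair. The erythroid miR-451a, the single tested strand of its 4, ranged from 6.44 to 10.23 in control and from 9.18 to 9.59 in Akita. The part of these cells in the pair's change was not tested.

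MiRNAs known for functions like those of the pair were counted in the same way. Over all tested miRNAs 8.42% were called higher and 6.32% lower, and nothing is read from the counts in lists this short. Of 5 that repress the cell cycle inhibitors of the Cdkn1 genes, among them miR-24-3p at 0.02 and miR-17-5p at -0.25 ± 0.08 SE (limma adjusted p = 0.055), 0 were called. Of the 8 linked to angiogenesis 7 were tested, 1 was called higher and 0 lower. The called one was miR-210-3p, the miRNA of the hypoxia response, at 0.91 ± 0.16 SE (limma adjusted p = 0.0072). It moved to 0.37 and lost its call with a floor 4 times higher (limma adjusted p = 0.34), lost it without the filter on dim miRNAs (limma adjusted p = 0.25), and stood at 0.51, still called, with normexp. The medians of these lists were 0.02 and -0.05.

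Other miRNAs of the X chromosome were compared with the pair as well. The array annotation of 80 other strands opens with a position on that chromosome, and 13 of them were tested. Strands annotated otherwise are left out, so the list can miss miRNAs of the X chromosome. Of these 0 were called higher and 2 lower, with a median of -0.07. Over all tested miRNAs 8.42% were called higher and 6.32% lower, and nothing is read from a count this small. The lower ones were miR-223-3p, a myeloid miRNA that is also on the leukocyte list, at -0.44 ± 0.11 SE (limma adjusted p = 0.034), whose call was lost under 11 of the 23 alternatives, and miR-504-3p, which 0 of the Akita arrays measured above background.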

How the data were processed

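Total kidney RNA (100 ng per sample) was labelled with Cy3 and hybridised to 1-colour Agilent mouse miRNA arrays, per the labels' protocols. The scanner files as deposited give a linear intensity for every spot. They come from Agilent Feature Extraction 12.0.3.1, per the submitters' processing notes; per the file headers, a spatial background surface was subtracted and no scaling between arrays was done. The table of values that the authors deposited gives each miRNA a linear ratio; set against the scanner files over 257 miRNAs (r from 0.95 to 0.99 on the log2 scale), it ran in the same direction and was centred on each miRNA's median over the 8 arrays. The origin of its scale per array is unknown, and its column medians were 0.95, 0.95, 0.97 and 0.70 in control and 1.03, 1.11, 1.13 and 1.22 in Akita. It was used as an alternative.

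Control spots and spots flagged as outliers (2.03% to 3.02% per array) were left out, 0 spots were saturated, and the spots of each of 4415 probes were averaged. A probe counted as above background where at least 0.5 of its spots were flagged so, and a miRNA where at least 1 probe did. Arrays were divided by the 75th percentile of the 451 probes above background on all arrays, probes of a miRNA were summed, values under 23.65 were set to that floor, and log2 was taken. The comparison used lmFit and eBayes of limma 3.58.1 (R 4.3.3), two-sided, with Benjamini-Hochberg adjustment over 285 miRNAs. The fit was run on simulated data with independent noise for each miRNA and no shift shared by an array. That run checks the code of the fit and cannot tell how scaling affects the calls. The number of arrays limits the precision. By the positions in the deposited file names, the groups lay in different rows of the slide, so row and group cannot be told apart. The members, lists and tests were chosen with earlier results of these data known. Text names the members, called or largest changes of each list, and the 5 miRNAs most alike to the pair, of which 1 gets no correlation because its control values stood at the floor. Alternatives to scaling, background, probe summary, filter, floor, replicate numbers and single arrays were run.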

Additional observations from a re-analysis of the deposited data

Results flagged for a closer look

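Of 24 groups of 4 values examined for a lone sample far from the other 3, 4 passed Dixon's 95% critical value for the gap as a share of the group's range, where chance gives about 1 in 20. None of them was a value of the pair. The labelling spike-in signal of control replicate 4 stood apart (gap 0.911 of the range), and so did that of Akita replicate 1 (0.979). MiR-155-5p stood apart in control replicate 4 (0.900) and in Akita replicate 4 (0.903), where its values ranged from 6.00 to 6.17 and from 5.46 to 5.52.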

How the results depend on the processing

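Against 42 calls, there were 109 without scaling, 14 with the percentile over all probes, 18 with the spike-ins, 89 with normexp, 21 with the total gene signal, 9 with a higher floor, 6 without a filter on dim miRNAs and 25 with the replicate block, and 20 to 40 with 1 array left out (20 without Akita replicate 1, 21 without Akita 4, 22 without Akita 3, 23 without control 3 and 27 without control 2). The log2 fold changes of miR-221-3p and miR-222-3p were 0.061 and 0.013 without scaling and 0.19 and 0.14 with the spike-ins, and that of miR-222-3p was 0.38 with the percentile over all probes. With 1 array left out they ran from 0.27 to 0.38 and from 0.24 to 0.33, the change in their difference from -0.0029 to 0.077, and their correlation from 0.88 to 0.99. That correlation was 0.48 without scaling and 0.76 with quantile normalization. Each strand was called under 9 of the 23 alternatives, both under 7 and neither under 12. With 1 array left out, the call of miR-221-3p was kept without control replicate 2 (0.36) or Akita replicate 2 (0.38), and that of miR-222-3p without control replicate 1 (0.30) or Akita replicate 2 (0.33); it was lost in the other fits. Same-numbered samples shared only a number: their deviations correlated at 0.096, -0.30, 0.34 and -0.35 over the 285 miRNAs, 1 of 8 samples matched its own number best, and with the replicate block the fold changes stayed at 0.33 and 0.28 and neither was called. With the higher floor all values of miR-155-5p stood at the floor, so no change of it was measurable there. The causes of these shifts were not tested. The unscaled correlations of the most alike miRNAs were computed after the data were seen.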
